A study of Mus musculus with 6 samples.

Results

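A set of 10 genes that carry chloride secretion and ion exchange in epithelia was described in epithelial cells of the mouse small intestine at E13.5. They were chosen by name out of the 23366 genes in the count tables: *Cftr*, *Ano1*, *Kcnq1*, *Kcne3*, *Kcnn4*, *Slc12a2*, *Atp1b1*, *Slc26a3*, *Slc26a6* and *Slc9a3*. RNA-sequencing had been performed on 3 libraries of the genotype *Shh-cre-egfp*:*Tcf7l1* lox/lox, called mutant here, and on 3 libraries from wild type embryos, each from 500 sorted living cells with EpCAM on their surface. The mutants carry Cre and EGFP in the *Shh* locus, where Cre is made in the gut epithelium and removes exon 6 of *Tcf7l1*, a gene for a repressor of WNT targets. Both groups were labelled as untreated. The question was how strongly the embryonic epithelium expressed these transport genes, and whether their transcripts differed when *Tcf7l1* was lost.

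Chloride secretion moves water into the gut lumen. The cotransporter NKCC1, encoded by *Slc12a2*, takes chloride up across the basolateral membrane, driven by the sodium gradient of the Na+/K+-ATPase, whose beta subunit is encoded by *Atp1b1*. Potassium channels of the same membrane, KCNQ1 with its partner KCNE3 and the calcium-activated KCNN4, return potassium and hold the membrane voltage that drives chloride out. Chloride leaves through apical channels, CFTR after a rise in cAMP or cGMP and the calcium-activated ANO1 after a rise in calcium. In absorption, the apical exchanger NHE3, encoded by *Slc9a3*, takes up sodium for protons, and SLC26A3 and SLC26A6 exchange chloride for bicarbonate. CFTR is the channel that is defective in cystic fibrosis, and loss of SLC26A3 causes congenital chloride diarrhoea.

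The total count lay between 18216537 and 20397278 in the 6 libraries, and the 10 genes together took 0.0528% to 0.0627% of it. *Tcf7l1* itself fell from 437 ± 64.0 normalized counts in wild type to 49.1 ± 21.1 in mutant libraries (mean ± SD, n = 3, edgeR's quasi-likelihood test, adjusted p = 4.19e-07), and *Shh*, the locus that carries Cre, from 480.5 ± 65.7 to 197 ± 22.6 (adjusted p = 6.08e-05). Levels are given as counts normalized by edgeR's TMM method to the mean library size, and p values come from the quasi-likelihood test of edgeR, with Benjamini-Hochberg adjustment over the 12501 genes with enough counts to be tested. Log2 fold changes are given with their standard error (SE, or after ±). A gene passed the test at an adjusted p under 0.01, and was called when its log2 fold change was also at least 0.5 in size and its mean normalized count at least 50. Over all tested genes, 2.78% were called higher and 5.83% called lower in the mutants, so that 32.3% of the calls were higher, against 17.3% with library size as the only scaling and 65.9% after a correction for gene length. All 3 wild type libraries held *Ddx3y* of the Y chromosome and no *Xist* of the inactive X, and all 3 mutant libraries held *Xist* and no *Ddx3y*, so that sex, the Cre allele and the loss of *Tcf7l1* cannot be told apart in any difference below. *Epcam*, the sorted marker, had 51902 ± 4617 normalized counts in wild type and 61570.1 ± 2104 in mutant libraries. Of 10 epithelial markers 5 passed the test as lower and 1 as higher, while the summed level of all 10 lay between 8106.5 and 8591 CPM (counts scaled to equal library sizes after TMM) in wild type and between 7828 and 8028 in mutant libraries, or 8582 to 8655 against 7587 to 7687 when scaled by library totals without TMM.

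The levels of the 10 genes spanned a wide range in the wild type epithelium. For levels between genes, counts were divided by exon length as RPKM, reads scaled to exon length in kilobases and to TMM-adjusted library size. *Atp1b1* stood highest, at 118, 117 and 123 RPKM in wild type libraries 1, 2 and 3, above 94.4% of the tested genes with a known length. *Kcne3* followed with 79.4, 75.4 and 88.3 RPKM, above 91.0% of them. *Slc12a2* (7.05 to 9.61 RPKM) and *Cftr* (6.83 to 8.23 RPKM) were near the middle of all tested genes, and their wild type values overlapped. *Slc26a6* came next at 1.45 to 2.25 RPKM, just above the highest wild type value of *Ano1*.

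The remaining 5 genes had at most 150 reads in any library. *Ano1* had 0.241 to 1.38 RPKM, *Kcnn4* 0.285 to 1.13, *Kcnq1* 0.110 to 0.278 and *Slc26a3* 0 to 0.142 RPKM in wild type. In this order *Ano1* and *Kcnn4* overlapped, as did *Kcnq1* and *Slc26a3*, while the lowest *Kcnn4* value was just above the highest of *Kcnq1*. *Slc9a3* had 1 read in all wild type libraries and 3 reads in all mutant libraries, was removed by the low-count filter and not tested. At this depth neither its level nor a difference was detectable, since both sums lie at or under a floor of 3 counts over a group.

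**Figure D1:**
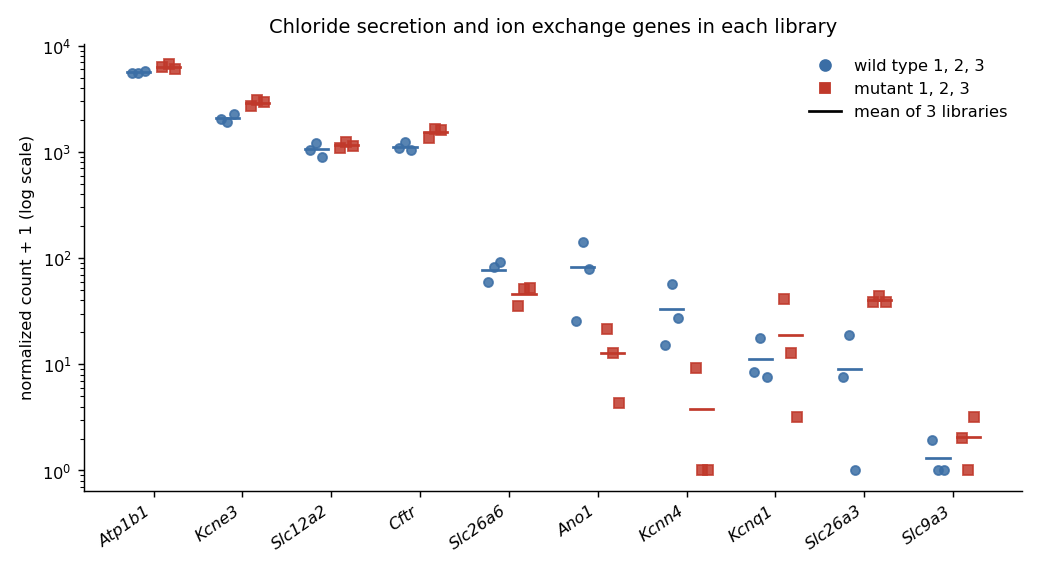
Normalized counts plus 1 on a log scale for the 10 genes in each library, ordered by their wild type level per exon length, with wild type as blue circles, mutant as red squares and bars at the mean of 3 libraries. *Kcne3* and *Cftr* lie higher in every mutant library and *Ano1* and *Kcnn4* lower, while the wild type libraries differ widely among themselves for *Ano1*, *Kcnn4* and *Slc26a3*.

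Of the 10 genes, 9 were tested. By edgeR's quasi-likelihood test, 2 passed as higher in the mutants, *Cftr* and *Kcne3* (22.2%), and 1 as lower, *Ano1* (11.1%). None was called in either direction, because both rises were under the log2 fold change of 0.5 and *Ano1* was under the mean of 50 counts. Over all tested genes, 7.32% passed as higher and 7.61% as lower. The 10 genes were chosen with earlier results of these data known, so that these shares and those below describe the set and do not test it. At an unadjusted p under 0.05, 4 of the 9 were higher and 3 lower, beside 18.6% and 21.6% of all tested genes. With DESeq2, 1 of the 10 genes was called higher and 0 lower. Normalized counts did not overlap between the groups for 4 genes that were higher (*Cftr*, *Kcne3*, *Atp1b1* and *Slc26a3*) and for 3 that were lower (*Ano1*, *Kcnn4* and *Slc26a6*), where 20.8% and 22.2% of all tested genes did so. Of these, *Slc26a3* passed the filter on low counts only through the mutant libraries, and *Ano1* and *Kcnn4* only through wild type, which favours their directions. The median log2 fold change of the 9 was 0.17, and that of all tested genes was -0.04.

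**Figure D2:**
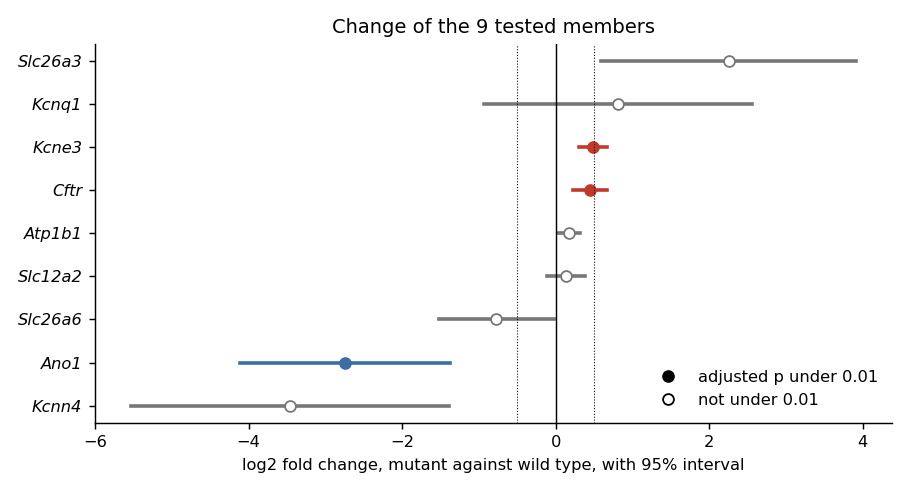
Log2 fold change of the 9 tested genes in mutant against wild type libraries (horizontal axis) with 95% intervals from edgeR's fit, filled where the adjusted p is under 0.01 and with dotted lines at 0.5 in either direction. The intervals of *Cftr* and *Kcne3* are narrow and above 0, and those of *Slc26a3*, *Kcnq1*, *Ano1* and *Kcnn4* span several log2 units.

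*Cftr* (ENSMUSG00000041301, plus strand of chromosome 6, 18120687 to 18272768 of mm9) encodes the apical chloride and bicarbonate channel. It had 1089.8, 1246 and 1033 normalized counts in wild type libraries 1, 2 and 3, and 1357, 1627 and 1596 in mutant 1, 2 and 3. Every mutant library was above every wild type library, and the spread within a group was similar, with a coefficient of variation of 9.82% in wild type and 9.66% in mutant libraries. The mean rose from 1123 ± 110.3 to 1527 ± 147 (n = 3), a log2 fold change of 0.44 (SE 0.11, 95% interval 0.22 to 0.67, adjusted p = 0.00598). It was 0.33 when libraries were scaled by their size alone (adjusted p = 0.036), and without wild type 1, wild type 3, mutant 2 or mutant 3 it was 0.42, 0.40, 0.39 and 0.41, at adjusted p values from 0.011 to 0.034, so that the test was no longer passed. In bulk samples, more cells that express a gene and more RNA in each of them cannot be told apart, here or in the results that follow. Exons of a processed transcript on the opposite strand, *Gm15592*, cover 1.66% of its exonic sequence, and whether reads were counted by strand is not given in the sources used here.

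Promoter windows from 250 bases before to 50 bases after a RefSeq start site matched 8 of the 10 genes, all but *Kcnq1* and *Slc12a2*, and all 9 windows were found once, without mismatch, in mm9. They are shown for the 3 genes that passed the test and for *Slc26a3*, which had the largest positive log2 fold change, because the deleted factor binds DNA. The window of *Cftr*, chr6:18120437-18120736 on the plus strand, starts transcription at the first base of the annotated gene.

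*Cftr* promoter: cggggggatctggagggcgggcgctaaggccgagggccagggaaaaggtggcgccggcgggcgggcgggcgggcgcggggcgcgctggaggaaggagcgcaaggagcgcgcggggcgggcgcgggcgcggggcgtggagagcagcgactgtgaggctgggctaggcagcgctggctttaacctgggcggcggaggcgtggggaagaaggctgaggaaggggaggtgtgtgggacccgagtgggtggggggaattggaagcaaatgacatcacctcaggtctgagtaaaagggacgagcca

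The bases G and C made up 71.3% of the *Cftr* window, more than in 92.2% of the 32851 RefSeq windows, whose median was 52.7%. It held 31 CpG dinucleotides, 1.01 times the number its base composition gives, against a median of 0.38. The letters CTTTG followed by a pair of bases that are each A or T, a core to which TCF factors bind, were not present on either strand in any of the 9 windows of the set, while 16.9% of all windows held them. Sequence outside these 300 bases was not searched.

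*Kcne3* (ENSMUSG00000035165, plus strand of chromosome 7, 107327207 to 107333374) encodes the small single-pass subunit that keeps KCNQ1 channels open in intestinal cells. Its normalized counts were 2034, 1932 and 2261 in wild type against 2679.6, 3094 and 2934 in mutant libraries. Again no mutant library came as low as the highest wild type library. The log2 fold change was 0.48 (SE 0.09, 95% interval 0.30 to 0.67, adjusted p = 0.000793), and it kept an adjusted p under 0.01 in all 13 alternative settings, in which it lay between 0.38 and 0.56. It was the only one of the 9 genes to pass the test in every setting run. RefSeq gives a pair of start sites, and the window shown, chr7:107326943-107327242 on the plus strand, is the one whose start lies 14 bases from the annotated gene start.

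*Kcne3* promoter: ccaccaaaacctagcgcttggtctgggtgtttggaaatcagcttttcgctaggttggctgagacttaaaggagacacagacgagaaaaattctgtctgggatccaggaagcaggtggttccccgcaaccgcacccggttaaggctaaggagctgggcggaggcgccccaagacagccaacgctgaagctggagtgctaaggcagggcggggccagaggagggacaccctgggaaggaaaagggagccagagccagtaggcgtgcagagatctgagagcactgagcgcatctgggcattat

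This window had a lower share of G and C than that of *Cftr*, 57.7%, with 12 CpG dinucleotides. The other *Kcne3* start lies 2027 bases upstream of the annotated one, and 48.3% of its window is G or C. Counts per gene cannot tell transcripts of the 2 starts apart.

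The channel that KCNE3 modulates was scarce. *Kcnq1* (ENSMUSG00000009545, plus strand of chromosome 7, 150293159 to 150612955) encodes the pore-forming subunit, and it had 7.49, 16.8 and 6.64 normalized counts in wild type, and 40.3, 11.7 and 2.21 in mutant libraries. Mutant libraries held both the highest and the lowest value, and the groups overlapped. The log2 fold change was 0.81 (SE 0.82, 95% interval -0.94 to 2.56, adjusted p = 0.497), and it rested on mutant 1, without which it was -0.55 (adjusted p = 0.74). Per exon length, *Kcne3* exceeded *Kcnq1* 638-fold, 271-fold and 800-fold in wild type libraries 1, 2 and 3, and 156-fold, 622-fold and 3121-fold in mutant 1, 2 and 3, where the wide range follows the few *Kcnq1* reads. Of the other KCNQ genes none passed the filter on low counts, and neither did *Kcne1*, *Kcne2* or *Kcne4*. Of 11 further potassium channel and subunit genes on a list, only *Kcnn1* was tested, at 20.03 ± 9.10 normalized counts in wild type and 13.8 ± 9.77 in mutant libraries (adjusted p = 0.597).

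*Ano1* (ENSMUSG00000031075, minus strand of chromosome 7, 151774454 to 151937879) encodes the calcium-activated chloride channel, and in the gut it is best known from the interstitial cells of Cajal, the pacemaker cells of the muscle layer. Its normalized counts were 24.3, 139.6 and 78.8 in wild type libraries 1, 2 and 3, and 20.7, 11.7 and 3.31 in mutant 1, 2 and 3. Wild type 1 was only just above mutant 1, and wild type 2 alone held 57.9% of the wild type reads. The log2 fold change was -2.74 (SE 0.64, 95% interval -4.11 to -1.38, adjusted p = 0.00529). The test was not passed without wild type 2 (-2.10, adjusted p = 0.062), wild type 3 (-2.75, 0.012), mutant 2 (-2.73, 0.020) or mutant 3 (-2.31, 0.019), nor with the gene-length correction (-2.52, 0.011) or the replicate number as a block (-2.63, just over 0.01).

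The RefSeq window of *Ano1*, chr7:151924429-151924728 on the minus strand, has its start 13401 bases inside the annotated gene.

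*Ano1* promoter: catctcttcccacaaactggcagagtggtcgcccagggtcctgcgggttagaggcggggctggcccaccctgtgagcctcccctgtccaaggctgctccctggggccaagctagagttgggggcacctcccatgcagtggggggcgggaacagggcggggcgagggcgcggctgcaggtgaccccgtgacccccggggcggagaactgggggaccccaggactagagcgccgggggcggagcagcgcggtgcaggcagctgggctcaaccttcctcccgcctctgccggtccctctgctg

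Like the *Cftr* window it was rich in G and C, at 71.7%, but with 18 CpG dinucleotides, 0.47 times the number its composition gives.

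*Kcnn4* (ENSMUSG00000054342, plus strand of chromosome 7, 25155282 to 25170228) encodes the calcium-activated potassium channel that supports calcium-driven secretion. It had 15, 60 and 28 reads in wild type libraries 1, 2 and 3, and 8, 0 and 0 reads in mutant 1, 2 and 3. The order of the libraries was that of *Ano1* as far as the zeros allow, with wild type 2 highest and 58.3% of the wild type reads in it. The log2 fold change was -3.46 (SE 0.98, 95% interval -5.53 to -1.39, adjusted p = 0.0155), which did not pass the threshold of 0.01, although it did with DESeq2 (adjusted p = 0.006), without a filter on low counts (0.0037) and without mutant 1 (0.0041). Against mutant 2 and 3 alone, with a floor of 3 counts over both, wild type was at least 19.8-fold higher. Mutant 1 was left out of this value because it held reads, so that it is not a bound for the mutant group. The mutant libraries together reached 8.82% of wild type, with a 95% counting interval (exact) of 3.71% to 18.05%. PCR-amplified reads without molecular identifiers are not independent molecules, so that such intervals cover counting error only.

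Some markers of other cell types also differed between the groups. All 4 markers of interstitial cells of Cajal had reads in both groups, and their summed level was 11.6 to 17.9 CPM in wild type against 4.80 to 6.68 in mutant libraries. Most of this sum was *Kit*, with 846 reads in wild type and 306 in mutant libraries. *Etv1* had 67 and 6 reads and *Thbs4* 19 and 4, while *Hand1* went the other way with 2 and 7. *Kit*, the defining receptor of these cells, had 264 ± 51.3 and 109 ± 15.3 normalized counts (edgeR's quasi-likelihood test, adjusted p = 0.000591). The gastric list, of which 8 of 10 genes had reads in wild type and 7 in mutant libraries, summed to 28.5 to 30.2 CPM in wild type against 8.11 to 10.6 in mutant libraries. In it *Sox2*, the defining factor of the foregut, had 30 reads in wild type and 0 in mutant libraries, at least 8.80-fold lower against a floor of 3 counts over the group. *Cldn18* fell from 299 ± 37.1 to 42.6 ± 15.9 (adjusted p = 1.79e-06). Of the 6 gastric genes tested, 5 had a negative log2 fold change and *Cldn18* alone passed. *Gkn1* did not fall, with 43.3 ± 21.4 normalized counts in wild type and 43.4 ± 17.5 in mutant libraries (adjusted p = 0.996). The part of such cells in the values of *Ano1* and *Kcnn4* was not tested.

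For the remaining non-epithelial lists, the sums overlapped between the groups in all but the blood and pancreas lists. The epithelial sum given above did not overlap either, and was lower in the mutant libraries. Mesenchyme and smooth muscle markers, 10 of 11 with reads in each group, summed to 68.8 to 83.2 CPM in wild type against 53.6 to 78.7 in mutant libraries. Most of this sum was *Vim*, and its highest mutant value was that of mutant 3, which held 442 *Acta2* reads against 92 and 161 in mutant 1 and 2. Of the 6 tested genes of this list, 3 had a positive and 3 a negative log2 fold change. The neural crest list, with reads for 6 of 6 genes, lay at 10.6 to 12.5 and 9.97 to 14.2, and the mesothelium list, 4 and 3 of 4, at 28.2 to 42.2 and 22.4 to 36.6 CPM. Within these overlapping sums, single genes differed, as *Msln* of mesothelium fell from 314 ± 86.7 to 64.5 ± 43.7 normalized counts (adjusted p = 0.000316) and *Vim* from 1250 ± 119 to 911 ± 49.3 (adjusted p = 0.00494). *Upk3b*, the mesothelium gene with the most reads, went the other way, from 373 ± 57.2 to 487 ± 116 (adjusted p = 0.121). *Pdgfra* of mesenchyme had 50 reads in wild type and 1 in mutant libraries and was not tested, and *Acta2* of smooth muscle had 87.3 ± 17.9 and 251 ± 208 (adjusted p = 0.0142). The endothelium list (2 of 6 in each group, with *Cdh5*, *Kdr*, *Tek* and *Emcn* at 0) stayed at or under 1.11 CPM, and the blood list (3 and 4 of 8, with *Ptprc*, *Hba-a1* and *Hbb-b1* at 0) at or under 2.005. The pancreas list (1 and 2 of 8, with *Ptf1a*, *Gcg* and the insulin genes at 0) lay at 5.97 to 6.48 in wild type against 8.75 to 9.65 in mutant libraries.

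**Figure D3:**
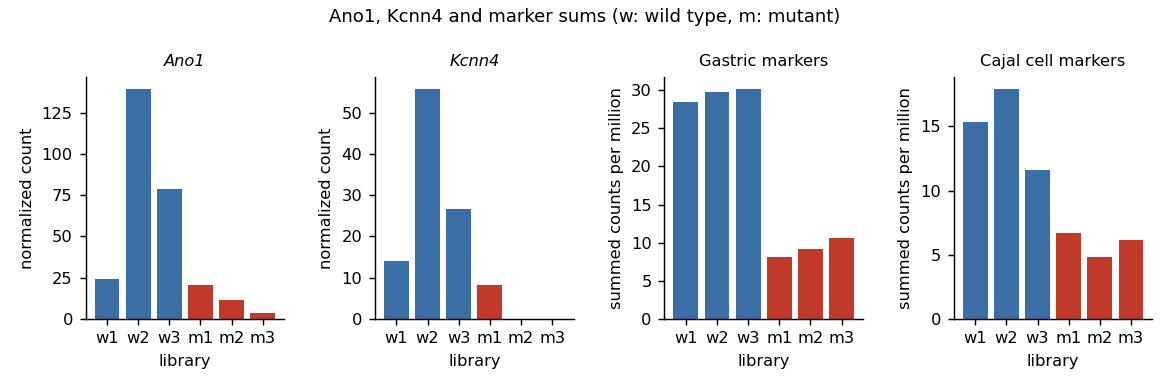
Bars give, for each library (w1 to w3 wild type, m1 to m3 mutant), the normalized counts of *Ano1* and *Kcnn4* and the gastric and Cajal cell marker sums in CPM. All 4 quantities are higher in every wild type library than in any mutant library, and *Ano1*, *Kcnn4* and the Cajal sum are highest in w2. Within wild type, *Ano1* and *Kcnn4* are lowest in w1, but the Cajal sum is lowest and the gastric sum highest in w3. The epithelium, blood and pancreas sums, which did not overlap either, are not shown.

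*Slc12a2* (ENSMUSG00000024597, plus strand of chromosome 18, 58038332 to 58106475), the basolateral entry step for chloride, had 1044, 1222 and 896 normalized counts in wild type, and 1099, 1228 and 1143 in mutant libraries. The groups overlapped, and the log2 fold change was 0.13 (SE 0.12, adjusted p = 0.422). The 95% interval from -0.11 to 0.38 leaves room for a rise of up to 1.30-fold. The ratio of *Cftr* to *Slc12a2* per exon length, picked after the values were seen, was 0.877, 0.856 and 0.969 in wild type against 1.04, 1.11 and 1.17 in mutant libraries, without overlap (two-sided exact permutation p = 0.10, the smallest that 3 against 3 libraries allow, and 0.20 after Benjamini-Hochberg adjustment over 6 ratios tested).

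*Atp1b1* (ENSMUSG00000026576, minus strand of chromosome 1, 166367398 to 166388486), the subunit that brings the sodium pump to the basolateral membrane, was the most even of the set within wild type, with a coefficient of variation of 2.86%. Its normalized counts were 5569, 5527 and 5824 in wild type against 6255, 6694 and 6081 in mutant libraries. All mutant values were higher, by a log2 fold change of 0.17 (SE 0.07, 95% interval 0.02 to 0.31), and the adjusted p of 0.0747 did not pass. *Atp1b3*, another beta subunit at nearly the same level per length (114 to 127 RPKM in wild type), rose from 4418 ± 251 to 5526 ± 239 normalized counts (log2 fold change 0.32 ± 0.07, adjusted p = 0.00378). It did not pass in 7 of 13 alternative settings, among them each single library left out other than wild type 3, with adjusted p values of up to 0.029.

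Of the apical exchangers, *Slc26a3* and *Slc26a6* went opposite ways, and neither passed the test. *Slc26a3* (ENSMUSG00000001225, plus strand of chromosome 12, 32075736 to 32158782) encodes a chloride and bicarbonate exchanger of mature enterocytes. It had 7, 19 and 0 reads in wild type libraries 1, 2 and 3, and 36, 40 and 34 reads in mutant 1, 2 and 3. The mutant libraries were close to each other, at 37.2, 42.5 and 37.6 normalized counts, and well above wild type, where the values were 6.55, 17.7 and 0. The gene passed the filter on low counts only through the mutant libraries, so that its rank by fold change is no support for a rise. The log2 fold change of 2.25 (SE 0.78, 95% interval 0.59 to 3.91) was larger than that of 99.7% of all tested genes, at an adjusted p of 0.0413. Leaving out a library moved it to between 1.69 (without wild type 3) and 3.52 (without wild type 2), with adjusted p values from 0.020 to 0.13. Together the mutant libraries reached 481% of wild type, and counting error alone (exact 95% interval) spans 311% to 768%.

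The RefSeq start of *Slc26a3* lies 47348 bases inside the gene as annotated in mm9, whose further transcripts lengthen the exons to 6369 bases. On its longest transcript, of 3462 bases, its mean wild type level was 0.120 RPKM in place of 0.0651. Its window is chr12:32122834-32123133 on the plus strand, with a match to a core bound by HNF1 factors in capitals, namely the letters GTTAAT, then 1 base of any kind, then the letters ATTAA.

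*Slc26a3* promoter: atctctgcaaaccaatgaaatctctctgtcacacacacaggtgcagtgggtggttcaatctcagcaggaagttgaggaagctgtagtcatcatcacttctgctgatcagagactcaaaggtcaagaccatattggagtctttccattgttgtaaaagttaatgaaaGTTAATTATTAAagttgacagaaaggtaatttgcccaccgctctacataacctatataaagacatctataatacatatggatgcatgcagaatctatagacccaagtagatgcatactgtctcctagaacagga

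The *Slc26a3* window was poor in G and C, at 39.3%, lower than in all but 8.92% of RefSeq windows, and it held 1 CpG dinucleotide. The marked letters begin 84 bases before the start site, and TATAAA begins 30 bases before it on the same strand. The HNF1 pattern, searched on both strands after the sequence had been read, occurs in 20 of all windows (0.0609%), and TATAAA, searched on the sense strand, in 8.32%. No other window of the set held either, which says only that these letters are not in those 300 bases.

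*Slc26a6* (ENSMUSG00000023259, plus strand of chromosome 9, 108756368 to 108764472), an exchanger of chloride for bicarbonate and oxalate, had 59.0, 81.0 and 91.1 normalized counts in wild type, and 34.1, 49.97 and 50.8 in mutant libraries. The groups did not overlap, and the log2 fold change was -0.78 (SE 0.35, 95% interval -1.52 to -0.03, adjusted p = 0.111). Per exon length, *Slc26a6* exceeded *Slc26a3* 27.5-fold and 14.0-fold in wild type 1 and 2, with no *Slc26a3* read in wild type 3, and 2.81-fold, 3.60-fold and 4.14-fold in mutant 1, 2 and 3. On the longest transcripts these became 15.0-fold and 7.62-fold in wild type 1 and 2, and 1.52-fold, 1.95-fold and 2.25-fold in the mutants, so that *Slc26a6* was the higher of both in every library on either length.

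Around these genes, 117 related genes were listed by function, 116 of them in the tables, and 67 were tested. Of these, 4 passed as higher (5.97%) and 5 as lower (7.46%), beside 7.32% and 7.61% of all tested genes, and the median log2 fold change was -0.22, beside -0.04. Among 14 other chloride channel genes tested, *Ano6*, a calcium-activated scramblase and ion channel and the most abundant of the list per length (12.8 to 15.4 RPKM in wild type), fell from a mean of 1324 ± 144 to one of 733 ± 45.4 (log2 fold change -0.85 ± 0.11, adjusted p = 5.38e-05). *Clca4*, the mm9 symbol of ENSMUSG00000037033, a gene of the CLCA family, had 198, 319 and 155 in wild type against 504, 428 and 439.6 in mutant libraries. *Clca4* rose by a log2 fold change of 1.03 (SE 0.22, adjusted p = 0.00277). It did not pass without wild type 1, without mutant 1 or with library size as the only scaling, at adjusted p values of up to 0.017. *Ano6* passed in all 13 settings.

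Of 11 tested cation-chloride cotransporters and kinases that control them, 0 passed as higher and 1 as lower. This was *Wnk4*, a kinase that acts on such cotransporters, with 187, 271 and 147 normalized counts in wild type, and 80.6, 80.8 and 71.8 in mutant libraries (log2 fold change -1.37 ± 0.26, adjusted p = 0.00122, or 0.013 without wild type 2). *Stk39*, the kinase SPAK that activates NKCC1, was the highest of the list per length at 6.68 to 8.75 RPKM in wild type and had an adjusted p of 0.117. Exons of a transcript on the opposite strand overlap 7.38% of *Wnk4* exon bases.

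Among 11 tested SLC26 and SLC4 genes, *Slc26a2*, a sulfate transporter, had 361, 329 and 279.9 normalized counts in wild type, and 165, 156 and 170.1 in mutant libraries. Its log2 fold change was -0.98 (SE 0.18, adjusted p = 0.00102), it passed in all 13 settings, and it was the only gene of the list to pass. The bicarbonate cotransporter *Slc4a7* stood highest per length, at 3.28 to 4.51 RPKM in wild type, with an adjusted p of 0.0862. Of 9 tested sodium-hydrogen exchangers and scaffolds, both genes that passed were scaffolds that bind transporters below the brush border, and both fell. *Slc9a3r1*, or NHERF1, the most abundant of the list at 136 to 153 RPKM, went from 5487 ± 334 to 4326 ± 179 normalized counts (log2 fold change -0.34 ± 0.07, adjusted p = 0.00273). It did not pass in 5 of 13 settings, which left out wild type 1, wild type 2, mutant 1 or mutant 2 or corrected for gene length, at adjusted p values of up to 0.021. *Pdzk1* went from 204 ± 32.7 to 86.1 ± 16.0 (log2 fold change -1.24 ± 0.24, adjusted p = 0.00133, or 0.012 without wild type 2), and 37.5% of its exon bases are shared with *Gpr89* on the other strand.

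Regulators made up the remaining genes that passed. *Sgk1*, a kinase that stimulates sodium and chloride transport, had 323, 473 and 508 normalized counts in wild type, and 984, 845 and 979 in mutant libraries, a log2 fold change of 1.11 (SE 0.15, adjusted p = 0.000101), and passed in all 13 settings. It was the only one of 4 tested genes around the epithelial sodium channel to pass, and *Nedd4l*, the most abundant at 5.13 to 6.62 RPKM in wild type, had an adjusted p of 0.0373. Of 13 tested receptors and kinases that start secretion, *Prkg2*, the cGMP-dependent kinase that acts on CFTR, rose from 988 ± 91.9 to 1329.5 ± 117 (log2 fold change 0.43 ± 0.11, adjusted p = 0.00791). It did not pass in 8 of 13 settings, each single library left out among them, at adjusted p values of up to 0.051. *Prkar1a* was the most abundant of these at 93.1 to 106 RPKM in wild type. *Gucy2c*, the receptor of guanylin upstream of that kinase, had 2921 ± 185 and 2536 ± 35.01 normalized counts (log2 fold change -0.20 ± 0.08, adjusted p = 0.0569).

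**Figure D4:**
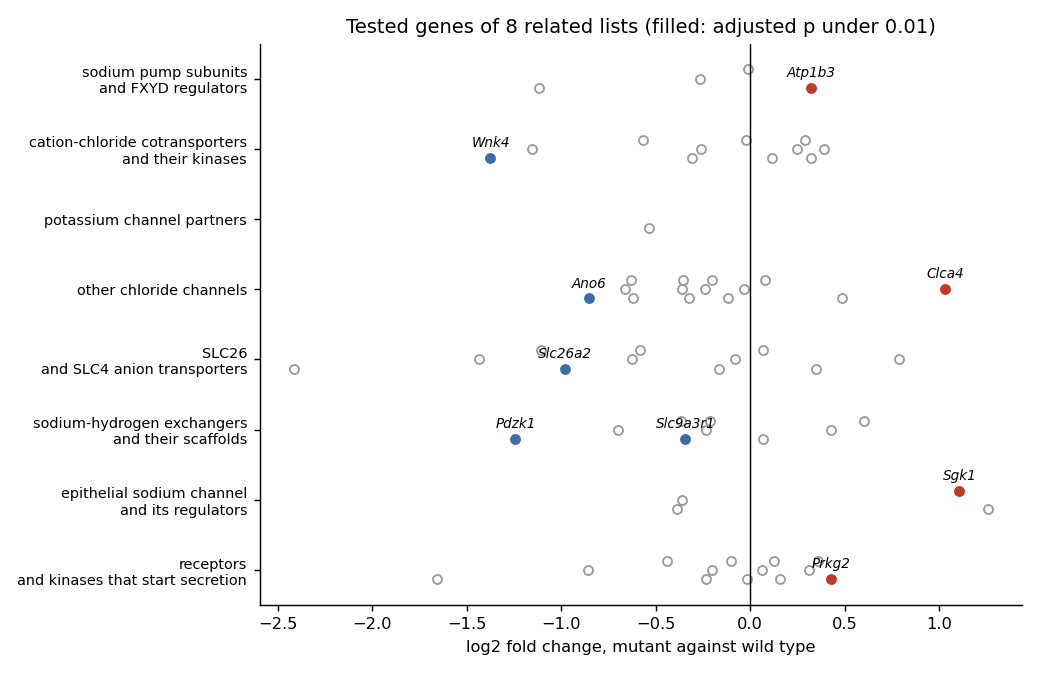
Log2 fold change in mutant against wild type libraries (horizontal axis) of the 67 tested genes in 8 lists of related transport genes, each point a gene, filled and named where the adjusted p is under 0.01. The 4 filled points on the right are *Atp1b3*, *Clca4*, *Sgk1* and *Prkg2*, and the 5 on the left are *Wnk4*, *Ano6*, *Slc26a2*, *Pdzk1* and *Slc9a3r1*.

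Each of the 9 tested genes was refitted under 13 alternatives, or 12 for the 4 that a filter at a mean of 50 counts removes. The direction held for 8 of them throughout, and only *Kcnq1* turned, once.

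**Figure D5:**
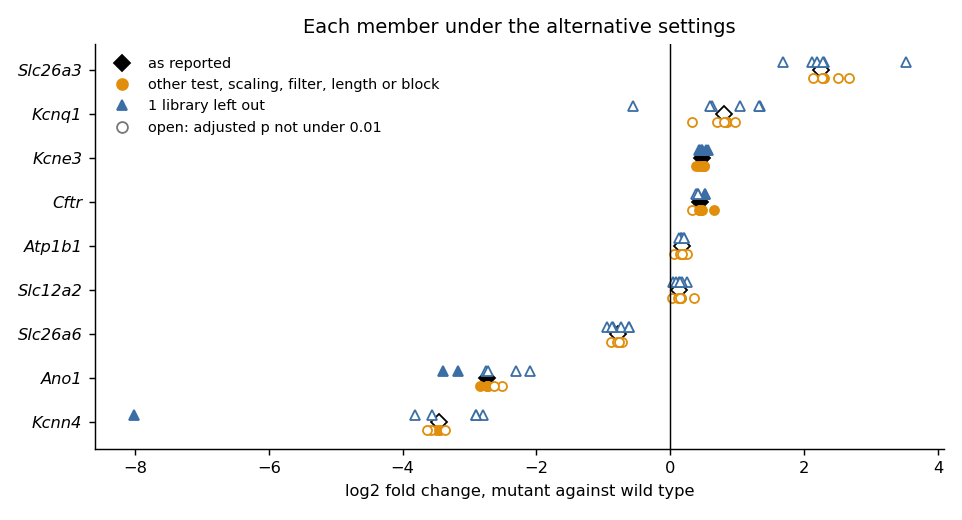
Log2 fold change (horizontal axis) of the 9 tested genes as reported (diamonds), with 1 library left out (triangles) and under another test, scaling, filter, length correction or replicate block (circles), open where the adjusted p is not under 0.01. *Kcne3* is filled in every setting, and the *Kcnn4* point at -8.02, without mutant 1, is a fitted value against mutant libraries at 0 reads and not a bound.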

How the data were processed

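RNA-sequencing counts of 6 libraries were used, 3 per group, each from 500 EpCAM-positive cells of E13.5 small intestine, with cDNA amplified over 15 PCR cycles. Per the labels and the study's methods, the authors mapped reads with STAR 2.5.2b to mm9, used featureCounts 1.5.1 and a UCSC gene model to count reads that mapped to 1 place and deposited raw read counts without normalization. Strand handling and the litter of the embryos are not given in the sources used here, so p-values measure the spread between libraries.

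Counts were tested as deposited with edgeR 4.0.16 in R 4.3.3 (TMM, filterByExpr, quasi-likelihood test on genotype, Benjamini-Hochberg adjustment over 12501 genes). The study's own analysis used DESeq2 and an RPKM threshold of 50. DESeq2 1.42.0 was an alternative here, and a mean normalized count of 50 replaced the RPKM. The genes and lists were chosen with earlier results of these data known. The genes to name were the 10 members, 5 checks, and of each related list the most abundant gene per length and up to 5 with the smallest adjusted p under 0.01. Further potassium channel genes, marker genes and *Gucy2c* were named after their values were seen. Exon lengths (union of exons, known for 95% of tested genes) and positions come from the GENCODE M1 annotation of mm9. Promoter windows are RefSeq's (GRCm38.p6) and were placed in mm9 by exact match. No transcript of the 10 genes had a copy in another gene at 95% identity over 50% of its length (BLAST+ 2.17.0). The fits were also run on counts simulated with the spread that the same fit had estimated, and no result here rests on this. Figures used matplotlib 3.10.9 under Python 3.11.15. Alternatives were DESeq2, RLE, library size alone, 2 filters, a loess length correction (span 0.5), a replicate block, other thresholds and each library left out. The staining and adult data were not used here.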

Additional observations from a re-analysis of the deposited data

How the results depend on the processing

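Over all genes, 348 were called higher and 729 lower. The counts became 200 higher with library size as the only scaling (which shifted the median log2 fold change of all genes by -0.11), 784 higher and 406 lower with the gene-length correction (shift 0.19), 85 and 284 at a log2 fold change of at least 1, 106 and 28 at a mean RPKM of at least 50, and 1178 lower at an adjusted p under 0.05. With 1 library left out they lay between 260 and 516 higher and between 405 and 867 lower, where dropping wild type 1 or 2 gave 405 and 406 and dropping mutant 2 gave 463.

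Of the 10 transport genes, 0 were called in either direction. *Kcne3* was called higher with DESeq2 and with RLE normalization, and *Cftr* with the gene-length correction, 1 gene in each case. Leaving out a library gave 0 to 2 called higher and 0 to 1 lower. The number that passed the test as higher, 2, was 1 with library size as the only scaling and 1 to 2 with a library left out. The number that passed as lower, 1, was 2 with DESeq2 and without a filter on low counts, 0 with a filter at a mean of 50 counts, with the gene-length correction and with the replicate block, and 0 to 2 with a library left out. Of the related genes, the 4 that passed as higher became 1 with library size as the only scaling and 2 with the replicate block, and 1 to 4 with a library left out, and the 5 lower became 2 to 10, with 2 without wild type 2 and 10 without wild type 3. *Kcnq1* reversed without mutant 1, to a log2 fold change of -0.55, and lay at up to 1.34 with another library left out. The cause of these changes was not tested. The wild type level of *Cftr* was 8.99 RPKM on its longest transcript, against 7.42, that of *Slc26a3* was 0.120 against 0.0651, and that of *Atp1b1* was 123.8 RPKM with library size as the only scaling, against 119.

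The replicate numbers did not pair the samples: deviations of equal numbers correlated at 0.0097, -0.045 and -0.018 over genes. *Slc9a3*, *Kcnq1*, *Slc26a3* and *Kcnn4* had at most 110 reads in either group, which limits their precision.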
